A study of Mus musculus with 32 samples.

Results

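Quadriceps muscle of 25-week-old male mice without collagen VI was compared with that of wild-type (WT) males of the same age, in 8 of the study's 32 RNA sequencing libraries: 4 from WT males and 4 from males homozygous for the Col6a2 knockout allele tm1(KOMP)Vlcg (Col6a2-/-). The libraries were chosen by the genotype, age and sex in their titles, and all genes in the deposited tables were considered. The allele was made in C57BL/6N and, per the labels, crossed to C57BL/6J for 5 generations. Mice of both genotypes descended from heterozygous parents, so WT and Col6a2-/- mice shared a mixed substrain background. The labels describe the replicates as separate mice, and the RNA came from cryosections of whole muscle, so each library mixes every cell type in the section. The other 24 libraries, from females of both genotypes at 25 weeks and from both sexes and genotypes at 5 weeks, entered the same model to estimate the spread. They also served to test whether the genotype difference in these males differed from that in females of the same age or in younger males. The series' title concerns collagen VI and how much TGF-beta is available in skeletal muscle.

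Collagen VI is a beaded microfibril built from 3 different chains, in most tissues those encoded by Col6a1, Col6a2 and Col6a3; the chains assemble inside the cell, and loss of a core chain keeps the microfibril from being secreted. In muscle it is made mainly by interstitial fibroblasts and lies next to the basement membrane of the fibres, and its loss in people causes Ullrich and Bethlem myopathies, with weakness, contractures and fibrosis. TGF-beta is secreted in a latent form that latent TGF-beta binding proteins tether to fibrillin and fibronectin in the matrix. Once released, it signals through its receptors and Smad proteins, and fibroblasts answer with collagens, periostin and protease inhibitors.

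On the first principal component of all 32 libraries, which held 35.1% of the variance, the 8 libraries separated by genotype: the WT libraries lay between -38.9 and -25.0 and the Col6a2-/- libraries between -20.6 and 2.49. Col6a2-/- replicate 1, at 2.49, had the highest abundance of the 8 libraries in 6668 of the 12817 genes tested, against 424 to 1672 genes for each of the other 7. Abundance is given in TPM, the share of all transcripts corrected for gene length, and coordinates are those of GRCm38. Genes at 1 TPM or more numbered 10399 to 10877 in the WT libraries and 10940 to 11756 in the Col6a2-/- libraries. Transcripts of the mitochondrial genome took 32.01 to 46.9% of all TPM in WT and 37.8 to 43.0% in Col6a2-/- libraries, and the signal recognition particle RNA Rn7s took 19.4 to 28.7% and 21.5 to 23.1%. The tables hold no read counts, so the number of reads in each library is unknown. Relative depth can be read from the ratio of deposited coverage to FPKM, which rises with the reads mapped. Its median per library was 3.86 to 5.43 in WT and 3.90 to 5.75 in Col6a2-/- libraries.

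Markers of the labelled tissue, such as actin and creatine kinase of muscle fibres, summed to 30560, 30290, 31230 and 43030 TPM in WT and 28360 to 32700 TPM in Col6a2-/- libraries, so that WT replicate 4 alone lay outside the Col6a2-/- range. Other markers set single libraries apart. WT replicate 4 nearly lacked slow-fibre RNA: Myh7, the slow myosin heavy chain, was 22.8, 20.7, 15.5 and 0.0895 TPM in the 4 WT libraries and 22.05 to 61.3 TPM in the Col6a2-/- libraries. The slow-fibre genes summed to 191 TPM there, against 1558, 1695 and 977 TPM in WT replicates 1 to 3 and 1505 to 1769 TPM in Col6a2-/- libraries. Fast myosin heavy chains also set WT replicate 4 apart from WT replicates 1 to 3. Its Myh2 was 68.9 against 470 to 549 TPM, and its Myh1 241 against 692 to 899 TPM. Its Myh4 was higher, 6419 against 3855 to 4108 TPM. WT replicate 2 carried haemoglobin and other red cell transcripts at 4114 TPM, against 342 to 1616 TPM in the other 7 libraries. Adipoq, the adipocyte hormone adiponectin, was 3.84 and 4.55 TPM in WT replicates 2 and 3 and 28.4 to 53.8 TPM in the other 6. Macrophage and monocyte markers summed to 44.8 to 68.7 TPM in WT and 111 to 179 TPM in Col6a2-/- libraries, and markers of fibro-adipogenic progenitors and fibroblasts to 490 to 786 and 869 to 1294 TPM. Tenocyte markers summed to 21.97 to 70.9 and 77.7 to 100.4 TPM, endothelial markers to 91.0 to 105 and 110.1 to 132 TPM, and smooth muscle and pericyte markers to 166 to 184 and 195 to 262 TPM. Neutrophil and lymphocyte markers stayed at or below 3.40 and 2.01 TPM in sum, and Ly6g, which defines neutrophils, was listed at 0 in all 8 libraries. The part of these differences in the gene results was not tested; in bulk tissue, fewer cells of a type and less RNA per cell cannot be told apart.

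**Figure D1:**
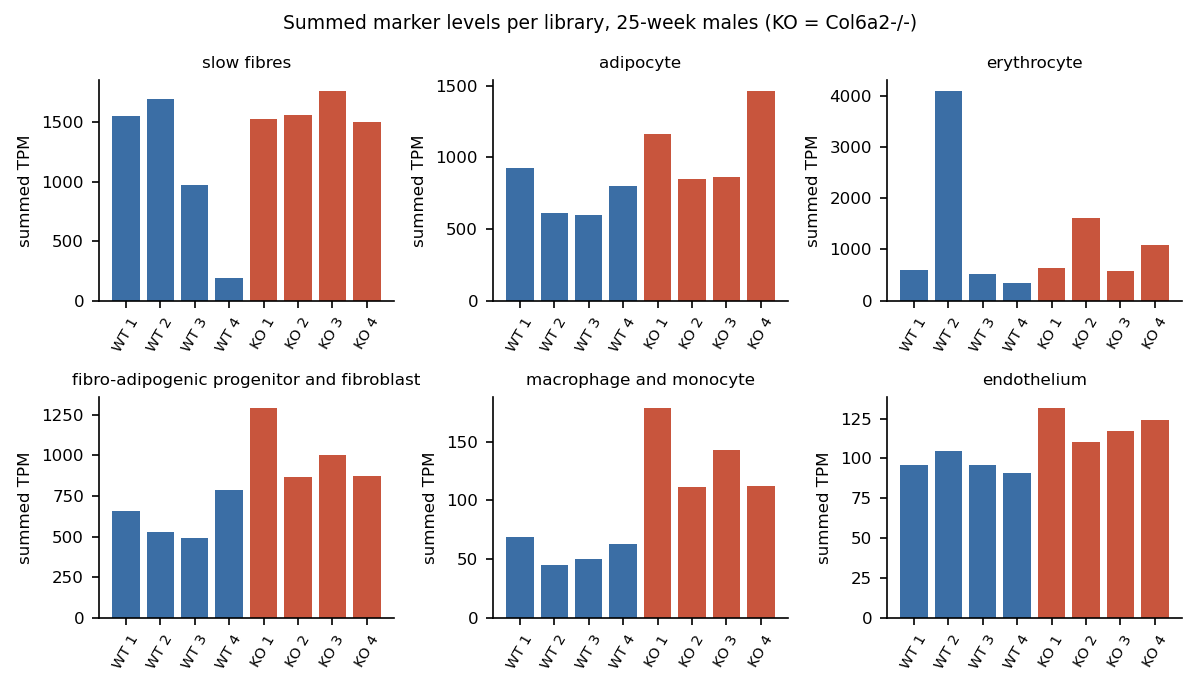
Summed abundance (TPM) of cell type markers in each of the 8 libraries of 25-week males, 1 bar per library, WT and Col6a2-/- replicates side by side in 6 panels on linear axes from 0. The macrophage sums of the 2 genotypes do not overlap (44.8 to 68.7 against 111 to 179 TPM), the slow-fibre sum is low in WT replicate 4 (191 TPM) and the erythrocyte sum is high in WT replicate 2 (4114 TPM).

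The targeted transcript was nearly absent from all 4 libraries labelled Col6a2-/-. Col6a2 (ENSMUSG00000020241, chr10:76595762-76623630, minus strand) was 8.55, 6.60, 7.28 and 11.2 TPM in WT and 0.0158, 0.0145, 0.0332 and 0.0289 TPM in Col6a2-/- libraries (log2 change -3.18, SE 0.13, limma adjusted p = 2.64e-16). The groups did not overlap, and the two-sided exact permutation p was 0.0286, the smallest that the 70 splits of 4 against 4 can give. Col6a3 rose from 9.97, 7.11, 7.99 and 13.5 TPM to 25.3, 17.8, 18.6 and 17.5 TPM (log2 change 0.99, SE 0.28, limma adjusted p = 0.0491). Col6a1 was 12.4, 10.1, 11.4 and 16.8 TPM in WT and 32.6, 18.3, 23.5 and 24.04 TPM in Col6a2-/- libraries, a change that did not pass the threshold (log2 change 0.90, SE 0.26, limma adjusted p = 0.0543). Neither gene's groups overlapped, and the rise of Col6a3 was lost in the fits without WT replicate 1, 2 or 3 or Col6a2-/- replicate 1, 3 or 4 (adjusted p up to 0.207). Of 14 genes listed as collagen VI chains and binding partners, 11 were tested; 3 of them were called higher, against 2.91% of all genes tested, and Col6a2 alone was called lower, against 0.117%. The count for the list, 4 called in all, was 2 without WT replicate 2 or 3 or Col6a2-/- replicate 1 or 4.

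Loss of Col6a2 was accompanied at this age by many modest rises and few falls. A gene was tested if 4 or more of the 32 libraries held it at 1 TPM or above. Of 12817 such genes, 388 (3.03%) were called at a limma adjusted p below 0.05, 373 higher and 15 lower in Col6a2-/- muscle, and 2532 had an unadjusted p below 0.05. Changes are given on the log2(TPM + 1) scale, which understates those of low genes. The called genes included 364 that code for protein, and 73 that changed at least 2-fold on that scale (0.570%), of which 68 were higher. The 4 Col6a2-/- libraries all lay above the 4 WT libraries in 1778 genes (13.9%) and all below them in 79 (0.616%).

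The one-sided split of the calls depended on how the libraries were scaled. The median change over all genes tested was 0.14 on the log2 scale, with 80.2% of genes above 0. It became -0.00 with median-of-ratios factors, -0.03 with quantile normalization and 0.06 after mitochondrial and Rn7s transcripts were left out. Median-of-ratios factors and quantile normalization align the libraries, so a median near 0 follows from their design. With the 3 scalings, in that order, 496, 296 and 316 genes were called higher and 313, 180 and 28 lower. Of the 388 calls 232 held in all 3. The count also rested on single libraries: 55 genes were called without Col6a2-/- replicate 1, and 610, 160 and 208 without replicates 2, 3 and 4 of that genotype, against 223, 94, 87 and 421 without WT replicates 1 to 4. These fits tested 12795 to 12813 genes. Counts per list with 1 library left out, given below, stand against these totals. A list's count can fall or rise with the total alone. Col6a2-/- replicate 1 held the highest value in 272 of the 373 called rises (72.9%), against 52.0% of all genes tested, and WT replicates 2 and 3 held the lowest in 145 and 141. 52 genes stayed called in all 8 fits that each left out 1 library; a gene described below as called in all 8 is one of these.

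**Figure D2:**
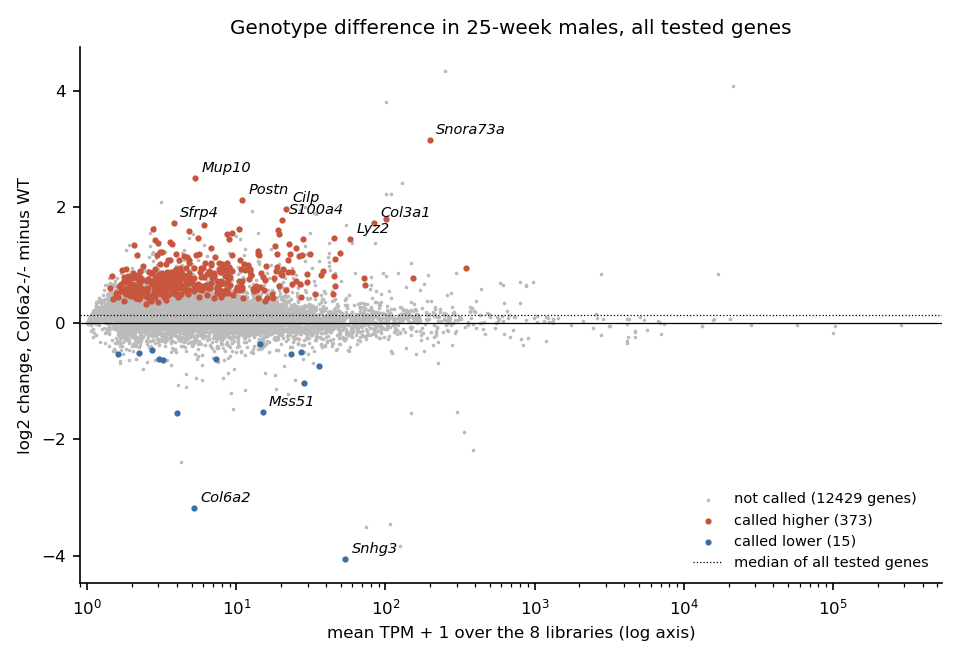
Log2 change of Col6a2-/- over WT 25-week males against the mean TPM + 1 over the 8 libraries (log axis), 1 point per gene tested (12817), with called genes coloured and some named. Called rises (373) outnumber called falls, and Col6a2 and Snhg3 lie lowest among the 15 called falls.

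Several genes of the fibrous interstitial matrix rose. Periostin, a matricellular protein that binds collagen and is a known TGF-beta target, led them. Postn (ENSMUSG00000027750, chr3:54361109-54391037) was 4.4, 2.59, 1.84 and 3.45 TPM in WT and 23.4, 11.2, 15.8 and 16.6 TPM in Col6a2-/- libraries (log2 change 2.12, SE 0.42, limma adjusted p = 0.00649; ratio of the means 5.46). Every Col6a2-/- library lay well above every WT library. Cilp (ENSMUSG00000042254, chr9:65265180-65280605), a cartilage and interstitial matrix protein known to bind TGF-beta1, was 10.6, 10.1, 5.70 and 5.39 TPM in WT and 43.2, 26.6, 31.3 and 32.02 TPM in Col6a2-/- libraries (log2 change 1.97, SE 0.32, limma adjusted p = 0.00105; ratio 4.18). Col3a1 (ENSMUSG00000026043, chr1:45311538-45349706), the chain of type III collagen, rose from 36.1, 21.98, 34.3 and 63.99 TPM to 186, 98.3, 113 and 108 TPM (log2 change 1.72, SE 0.31, limma adjusted p = 0.00281; ratio 3.23). All 3 genes were called in all 8 fits with a library left out. In each of them Col6a2-/- replicate 1 was the highest library, and none of the groups overlapped.

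Of 14 fibrillar and fibril-associated collagen genes, all tested, 5 rose, against 2.91% of all genes, and none fell, with a median change of 0.97 against 0.14 over all genes. With 1 library left out the count was 3 without WT replicate 2 or 3 or Col6a2-/- replicate 1. Besides Col3a1 these were Col14a1, a collagen on the surface of fibrils (1.47, SE 0.28), Col8a1, a short-chain collagen of vessels and fibroblasts (1.36, SE 0.24), and the type V chains Col5a2 and Col5a1 (1.19 and 1.04), which nucleate fibrils. Col14a1 and Col8a1 were called in all 8 fits, and Col5a2 lost its call without WT replicate 2 or 3 or Col6a2-/- replicate 1 (adjusted p up to 0.0925). A microRNA gene model inside Col3a1, Gm47302, rose by 1.79; reads of the host and of the gene inside it cannot be separated in these tables. Matricellular proteins had 3 rises among 18 genes, against 2.91% of all genes: Postn, Cilp and the thrombospondin Thbs3 (1.08, SE 0.21), each called in all 8 fits. The count was 7 in the 8 libraries alone (4.88% of all genes), and 9 in the 16 libraries of 25 weeks (8.16%) or with quality weights (18.4%). Fn1, which encodes fibronectin, was 14, 7.26, 5.44 and 10.3 TPM in WT and 29.7, 31.3, 19.4 and 29.9 TPM in Col6a2-/- libraries (log2 change 1.53, SE 0.40, limma adjusted p = 0.0347). Its call was lost without WT replicate 2 or 3 or Col6a2-/- replicate 1, 2 or 4 (adjusted p up to 0.132).

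The small leucine-rich proteoglycans, which decorate collagen fibrils and bind TGF-beta, had 2 rises among 12 genes, against 2.91% of all genes, and a median change of 0.70. Bgn (ENSMUSG00000031375, chrX:73483602-73495933), which encodes biglycan, a direct partner of collagen VI, was 11.3, 8.64, 7.85 and 9.41 TPM in WT and 33.5, 21.6, 23.7 and 22.1 TPM in Col6a2-/- libraries (log2 change 1.33, SE 0.23, limma adjusted p = 0.00232). Aspn (asporin) rose by 1.18 (SE 0.21), and both were called in all 8 fits, without overlap between the groups of either gene. Of 15 tested basement membrane genes 1, the type IV collagen chain Col4a2, rose (0.63; SE 0.17, limma adjusted p = 0.0347), against 2.91% of all genes, and the median was 0.44. That call was lost without WT replicate 1, 2 or 3 or Col6a2-/- replicate 1, 3 or 4 (adjusted p up to 0.146), and no gene of the list was called once mitochondrial and Rn7s transcripts were left out. The count was 3 without Col6a2-/- replicate 2 and 2 without WT replicate 4. Over all genes those fits called 610 and 421.

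**Figure D3:**
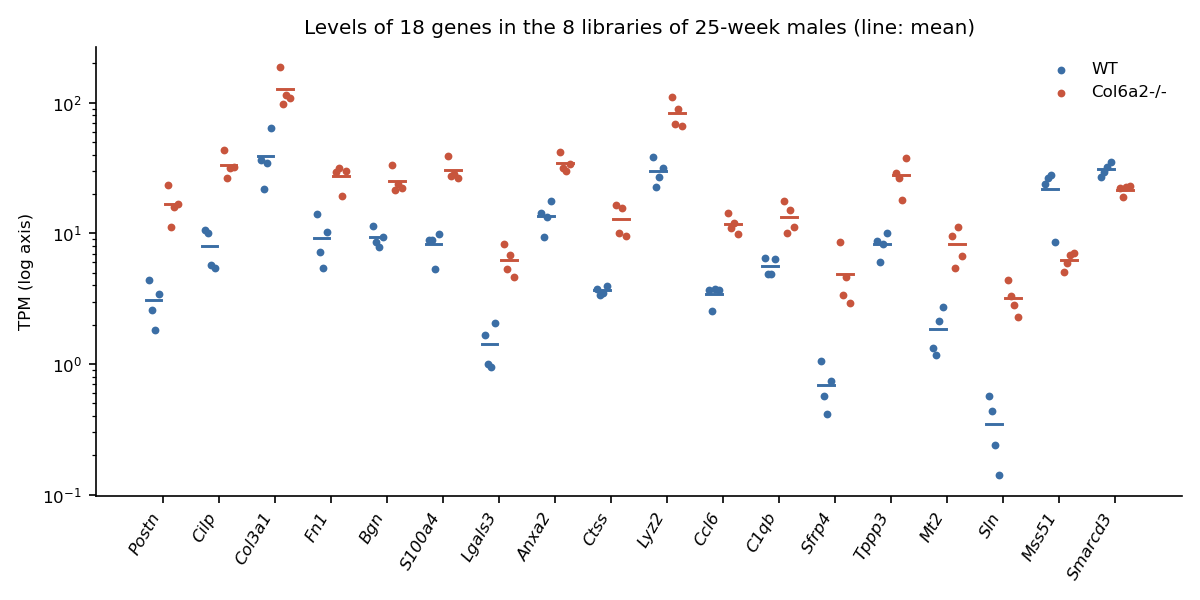
Abundance (TPM, log axis) of 18 genes in each of the 8 libraries of 25-week males, WT and Col6a2-/- points side by side with a line at each group's mean. In Postn, Cilp, Col3a1, Bgn and S100a4 every Col6a2-/- point lies above every WT point; in Mss51 WT replicate 4 (8.65 TPM) lies near the Col6a2-/- points (5.09 to 7.11 TPM).

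Elastic fibre and microfibril genes had 6 rises among 14 tested of 15 listed, against 2.91% of all genes, with a median of 0.51 against 0.14. These were elastin (Eln, 1.19), fibrillin-1, the scaffold that holds latent TGF-beta complexes (Fbn1, 1.17), the microfibril proteins Mfap4 (1.17) and Mfap5 (0.85), and the fibulins Fbln1 (0.83) and Fbln2 (0.75). In WT and Col6a2-/- libraries Fbn1 was 7.58, 5.21, 7.90 and 11 TPM and 17.3, 18.8, 19.1 and 18.9 TPM (log2 change 1.17, SE 0.26, limma adjusted p = 0.0154), with all Col6a2-/- values above all WT values. Its call was lost without WT replicate 2 or Col6a2-/- replicate 1 (adjusted p up to 0.0704), and the count for the list was 1 without WT replicate 2 or Col6a2-/- replicate 1. That count was 2 without the filter (0.367% of all genes) and 9 with quality weights (18.4%).

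Enzymes and chaperones that modify and cross-link collagen had 6 rises among 21 genes, against 2.91% of all genes, and a median of 0.50. The count was 3 with quantile normalization (2.31% of all genes), with FPKM (2.08%), without the filter (0.367%) and with the replicate block (3.24%). It was 10 with a pseudocount of 0.1 (5.6%), 12 in a model of the 16 libraries of 25 weeks (8.16%) and 15 with quality weights (18.4%). Serpinh1, the collagen chaperone HSP47, rose by 1.08, the lysyl oxidases Loxl2 and Loxl1 by 1.03 and 0.95, and the prolyl hydroxylase P3h2 by 0.59; the transglutaminase Tgm2 and the lysyl hydroxylase Plod1 rose by 0.50 and 0.43. Of the 4 with the largest change Loxl1 kept its call most often and lost its call without WT replicate 2 or Col6a2-/- replicate 1 (adjusted p 0.0108 to 0.0652). The count for the list was 0 without WT replicate 2 or Col6a2-/- replicate 1, 1 without WT replicate 3, 2 without Col6a2-/- replicate 4 and 3 without WT replicate 1 or Col6a2-/- replicate 3.

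Among matrix proteases and inhibitors 4 of 20 tested rose, against 2.91% of all genes, with a median of 0.29. Timp1, a metalloproteinase inhibitor, was 0, 0.358, 0.147 and 0.141 TPM in WT and 2.06, 2.03, 1.62 and 2.01 TPM in Col6a2-/- libraries (log2 change 1.34, SE 0.31, limma adjusted p = 0.0201), low in both genotypes but without overlap. Mmp2, a gelatinase of fibroblasts, rose by 0.97 (SE 0.22) and Mmp19 by 0.67, and the urokinase receptor Plaur was higher by 0.46. Plaur reached 1 TPM in 4 libraries, 3 of them outside the Col6a2-/- males of 25 weeks, so it was tested only with a library of the group where it is high. Its change is therefore a description without a test, although the count of 4 includes it. The call of Timp1 was lost without WT replicate 1 or 3 or Col6a2-/- replicate 1 (adjusted p up to 0.0865) and that of Mmp2 without WT replicate 2 or 3 or Col6a2-/- replicate 1 (up to 0.123). The count for the list was 0 without WT replicate 3 or Col6a2-/- replicate 1, 1 without WT replicate 2 and 2 without WT replicate 1 or Col6a2-/- replicate 3. It was 1 without the filter (0.367% of all genes), 7 in the 16 libraries of 25 weeks (8.16%) and 9 with quality weights (18.4%).

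The TGF-beta ligands themselves did not pass the threshold. Tgfb1 was 0.464, 0.698, 0.555 and 0.878 TPM in WT and 1.06, 1.08, 0.692 and 0.959 TPM in Col6a2-/- libraries (log2 change 0.24, SE 0.15, limma adjusted p = 0.379). The changes of Tgfb3, 0.22, and Tgfb2, -0.12, had limma adjusted p of 0.408 and 0.700. Of 13 tested genes for ligands, latency and activation, 1 rose, against 2.91% of all genes: the latent TGF-beta binding protein Ltbp4 (log2 change 0.74, SE 0.21, limma adjusted p = 0.0451). It was called in none of the 8 fits with a library left out (adjusted p 0.0674 to 0.129), nor with quantile normalization or once mitochondrial and Rn7s transcripts were left out. Of 15 tested receptor and Smad genes, 1 rose, against the same share of all genes: the endothelial co-receptor endoglin (log2 change 0.57, SE 0.14, limma adjusted p = 0.0218; lost without WT replicate 2 or 3 or Col6a2-/- replicate 1 or 4, adjusted p up to 0.0896). No gene of that list was called with quantile normalization or without the filter. The medians of these lists were 0.33 and 0.27.

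Of 21 tested genes known as targets of TGF-beta 7 rose, against 2.91% of all genes, and none fell, against 0.117%. The median was 0.72, and in 16 of the 21 all Col6a2-/- libraries lay above all WT libraries, against 13.9% of all genes. The 7 were Postn, Col3a1, Fn1, Timp1 and Loxl2, which also stand in the matrix lists, the matrix protein Tgfbi (0.91) and the oxidase Nox4 (0.66). With 1 library left out the count was 2 without WT replicate 3 or Col6a2-/- replicate 1 and 4 without WT replicate 2. It was 3 without the filter (0.367% of all genes), 13 in the 8 libraries alone (4.88%), and 14 in the 16 libraries of 25 weeks (8.16%) or with quality weights (18.4%). Fibroblast markers, which moved with this list as given above, included rises of Pdgfra (0.73), Pdgfrb (0.51), Cd34 (0.68), Gsn (0.94) and Mgp (1.21) among 13 genes, 5 called against 2.91% of all genes. That count was 3 once mitochondrial and Rn7s transcripts were left out (2.47% of all genes), and 1 without WT replicate 2 or 3 or Col6a2-/- replicate 1 and 3 without Col6a2-/- replicate 3. The part of these markers in the change of the list was not tested.

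Single genes of neighbouring pathways were called, against 2.91% of all genes called higher. Fstl1, a secreted follistatin-like protein that modulates BMP signalling, was 13.7, 10.8, 11.1 and 16.2 TPM in WT and 41.2, 26.6, 29 and 26.8 TPM in Col6a2-/- libraries (log2 change 1.19, SE 0.23, limma adjusted p = 0.00460). It was the 1 call among 19 tested genes of the myostatin, activin and BMP pathways. Sfrp4 (ENSMUSG00000021319, chr13:19623104-19632994), a secreted Wnt antagonist, was 1.05, 0.573, 0.418 and 0.746 TPM in WT and 8.65, 3.36, 4.64 and 2.94 TPM in Col6a2-/- libraries (log2 change 1.72, SE 0.31, limma adjusted p = 0.00281; ratio 7.04), the 1 call among 8 tested antagonists. Dkk3, another antagonist, at -0.945 and not called here, was called lower with each of the 3 other scalings and without WT replicate 2. Fstl1 and Sfrp4 were called in all 8 fits and had no overlap between genotypes. Of the IGF axis, 2 of 14 tested genes rose, the binding proteins Igfbp6 (0.88) and Igfbp7 (0.64). These calls were lost without WT replicate 1, 2 or 3 or Col6a2-/- replicate 1, 3 or 4 for both genes (adjusted p up to 0.230 and 0.179), and neither was called once mitochondrial and Rn7s transcripts were left out.

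Calcium- and lipid-binding proteins of the S100, annexin and galectin families gave 9 rises among 22 genes, against 2.91% of all genes, with a median of 0.45. S100a4 (ENSMUSG00000001020, chr3:90603771-90606045), found in fibroblasts and macrophages, was 8.81, 8.88, 5.38 and 9.93 TPM in WT and 39.01, 27.4, 28.5 and 26.7 TPM in Col6a2-/- libraries (log2 change 1.78, SE 0.27, limma adjusted p = 0.000524). Lgals3 (ENSMUSG00000050335, chr14:47367751-47386160), galectin-3, a macrophage lectin, was 1.67, 1.01, 0.954 and 2.05 TPM in WT and 8.28, 5.29, 6.86 and 4.63 TPM in Col6a2-/- libraries (log2 change 1.58, SE 0.26, limma adjusted p = 0.00105). Neither gene's groups overlapped. Anxa2 and S100a10, whose proteins form 1 membrane complex, rose by 1.29 (SE 0.22) and 1.20 (SE 0.18), and S100a6, Anxa1, Anxa5, Anxa4 and S100a11 by 1.11, 0.89, 0.88, 0.88 and 0.78. S100a4, Lgals3, Anxa2 and S100a10 were called in all 8 fits, and the count for the list was 5 without WT replicate 2 or 3 or Col6a2-/- replicate 1. A gene model on the same strand, Gm42674, overlaps S100a4.

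Tppp3 (ENSMUSG00000014846, chr8:105467493-105471526), a tubulin-binding protein of connective tissue sheath cells, was 8.76, 5.99, 8.29 and 10.1 TPM in WT and 28.9, 26.7, 17.96 and 37.6 TPM in Col6a2-/- libraries (log2 change 1.61, SE 0.23, limma adjusted p = 0.000389). It was called in all 8 fits, with no overlap between the groups. Of 19 tested cytoskeletal and cell stress genes, 4 rose, against 2.91% of all genes: the small GTPase Rrad (1.37), the actin-binding proteins Tagln2 (0.93) and Tmsb10 (0.86), and vimentin (0.81), the intermediate filament of mesenchymal cells. Tagln2 lost its call only without Col6a2-/- replicate 1 (adjusted p 0.0522). The count for the list was 0 without Col6a2-/- replicate 1, 1 without WT replicate 3, 2 without WT replicate 1 or 2 or Col6a2-/- replicate 3 or 4 and 7 without Col6a2-/- replicate 2. Over all genes the first and last of these fits called 55 and 610.

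Several genes expressed by macrophages were higher in the Col6a2-/- males. Ctss (ENSMUSG00000038642, chr3:95526786-95556403), the lysosomal protease cathepsin S of antigen-presenting cells, was 3.78, 3.36, 3.52 and 3.98 TPM in WT and 16.4, 10.1, 15.7 and 9.53 TPM in Col6a2-/- libraries (log2 change 1.55, SE 0.24, limma adjusted p = 0.000828). Lyz2, macrophage lysozyme, was 38.1, 22.7, 27.1 and 31.7 TPM and 109.6, 69.1, 89.5 and 66.4 TPM in the respective libraries (log2 change 1.45, SE 0.26, limma adjusted p = 0.00281). Lyz1 rose by 1.62; as near-identical neighbours, Lyz1 and Lyz2 may share reads, which makes their single values uncertain. All 3 were called in all 8 fits, and the groups did not overlap. Of 13 macrophage and monocyte markers 5 rose, against 2.91% of all genes, Lyz2 together with Cd68 (1.19), C1qa (1.01), Csf1r (0.84) and Mpeg1 (0.79), and the Col6a2-/- libraries lay above the WT libraries without overlap in 10, against 13.9% of all genes. The count of 5 was 1 without Col6a2-/- replicate 1 and 2 without WT replicate 2 or 3 or Col6a2-/- replicate 3.

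Complement gave the highest share of calls of the 39 pathway lists, 11 of 16 tested against 2.91% of all genes, with a median of 0.93. The rises included the C1q subunits C1qa, C1qb and C1qc, which start the classical pathway (1.01, 1.09 and 1.01), its proteases C1ra and C1s1 (0.81 and 0.93), and C4b, C3 and factor B (Cfb), which form the convertases (1.30, 1.15 and 1.17). They also included properdin (Cfp, 0.88), which stabilises the alternative pathway convertase, and the inhibitor Serping1 (0.83). C1qb was 6.52, 4.91, 4.87 and 6.37 TPM in WT and 17.6, 9.98, 14.99 and 11.1 TPM in Col6a2-/- libraries (log2 change 1.09, SE 0.24, limma adjusted p = 0.0129), all Col6a2-/- values above all WT values. Factor D (Cfd), a serine protease of the alternative pathway that adipocytes secrete, had the largest change of the list, 2.42, but did not pass the threshold (SE 0.80, limma adjusted p = 0.0868), at 47.5, 13.1, 24.3 and 104 TPM in WT and 265, 131, 137 and 304 TPM in Col6a2-/- libraries. It is also 1 of the 10 adipocyte markers, none of which was called, with a median of 1.04 and sums of 596 to 925 TPM in WT and 851 to 1466 TPM in Col6a2-/- libraries. Without WT replicate 2 the adipocyte median was 0.63, and without WT replicate 4 it was 1.52 with 1 marker called. The part of these markers in the complement values was not tested. With 1 library left out the count was 0 without WT replicate 2 or Col6a2-/- replicate 1, 1 without WT replicate 3, 3 without Col6a2-/- replicate 3 and 7 without WT replicate 1. Over all genes those fits called 94, 55, 87, 160 and 223, against 388 with every library. The call of C1qb was lost without WT replicate 2 or 3 or Col6a2-/- replicate 1 (adjusted p up to 0.0896).

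Of 17 tested chemokines and receptors 6 rose, against 2.91% of all genes, with a median of 0.46. With 1 library left out the count was 3 without WT replicate 2 or Col6a2-/- replicate 1, and 4 to 6 in the other 6 fits. Ccl6 was 3.65, 2.57, 3.77 and 3.67 TPM in WT and 14.4, 10.99, 12.03 and 9.81 TPM in Col6a2-/- libraries (log2 change 1.53, SE 0.29, limma adjusted p = 0.00428), and Ccl9 rose by 1.23 (SE 0.21). Both macrophage chemokines were called in all 8 fits. Ccl2, which draws monocytes, rose by 1.18 and its receptor Ccr2 by 1.02, alongside Ccl21a (0.80) and the scavenger receptor Ackr3 (0.79). The call of Ccl2 was lost without WT replicate 2 or Col6a2-/- replicate 1 (adjusted p up to 0.0533), and that of Ccr2 without WT replicate 1, 2, 3 or 4 or Col6a2-/- replicate 1 or 3 (up to 0.237). Retnla, a marker of alternatively activated macrophages, rose by 1.44 (SE 0.37, limma adjusted p = 0.0319) and lost its call without WT replicate 2 or 3 or Col6a2-/- replicate 1 or 3 (up to 0.142).

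Cathepsins and lysosomal genes had 5 rises among 19, against 2.91% of all genes: Ctss, Ctsh (0.89), Laptm5 (0.88), Lgmn (0.82) and Ctsb (0.51). That count was 1 without WT replicate 2 or 3 or Col6a2-/- replicate 1 and 2 without Col6a2-/- replicate 3. MHC class II genes, which present antigen on macrophages and dendritic cells, had 1 call among 6 tested, H2-DMb1 (log2 change 0.94, SE 0.20, limma adjusted p = 0.0123); 2.91% of all genes were called higher. All 6 were higher without overlap between genotypes, against 13.9% of all genes, with a median of 0.97. The call of H2-DMb1 was lost without WT replicate 2 or Col6a2-/- replicate 1 (adjusted p up to 0.0896), and the count for the list was 3 without Col6a2-/- replicate 2. That last fit called 610 genes in all. Of 23 tested interferon-stimulated genes 1 rose, a share near the 2.91% over all genes. This was the antiviral membrane protein Ifitm3 (0.86, adjusted p 0.0451 in limma), which lost its call without WT replicate 1, 2 or 3 or Col6a2-/- replicate 1, 3 or 4 (up to 0.214) and once mitochondrial and Rn7s transcripts were left out. The count for the interferon list was 3 without WT replicate 4 and 2 without Col6a2-/- replicate 2. Over all genes those fits called 421 and 610.

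Metallothioneins, small cysteine-rich proteins that bind zinc and copper and are induced by metals, glucocorticoids and oxidative stress, gave the 3 rises among 18 tested genes for metal and oxidative stress, against 2.91% of all genes. Mt2 (ENSMUSG00000031762, chr8:94172664-94173568) was 1.34, 1.17, 2.14 and 2.71 TPM in WT and 9.50, 5.41, 11.3 and 6.76 TPM in Col6a2-/- libraries (log2 change 1.69, SE 0.40, limma adjusted p = 0.0212). Mt1 (ENSMUSG00000031765, chr8:94179082-94180327) was 7.85, 7.14, 6.12 and 7.53 TPM and 21.7, 13.1, 21.6 and 18.04 TPM (log2 change 1.25, SE 0.29, limma adjusted p = 0.0204), and Mt3 (ENSMUSG00000031760, chr8:94152607-94154146) rose by 0.76 (SE 0.19). Genotypes did not overlap in Mt1, Mt2 or Mt3. The calls were lost without WT replicate 1, 2 or 3 or Col6a2-/- replicate 1 or 3 for Mt2 (adjusted p up to 0.103). They were lost without WT replicate 2 or 3 or Col6a2-/- replicate 1 or 3 for Mt1 (up to 0.106) and without WT replicate 1, 2 or 3 or Col6a2-/- replicate 1, 3 or 4 for Mt3 (up to 0.114). With quantile normalization the adjusted p was 0.0553 for Mt2 and 0.0648 for Mt1, and with median-of-ratios factors 0.0608 for Mt1. The median of the list was 0.13 against 0.14 over all genes.

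The 3 genes lie together on chromosome 8 and moved the same way, so the 250 bases before the start of each were searched for the core of the metal response element, the site of the zinc-sensing factor MTF1, as TGCACNC or TGCGCNC on both strands. The sequences are those of RefSeq on GRCm38.p6, plus strand, 5′ to 3′, with matches in capitals: chr8:94178839-94179088 for Mt1 holds 1 match, chr8:94172368-94172617 for Mt2 holds 3, and chr8:94152357-94152606 for Mt3 holds none of these letters. Of 32536 promoter windows of that length in the same table, 21.5% held at least 1 match and 5.21% at least 2. The RefSeq start of Mt2 lies upstream of the start in the deposited tables. That of Mt1 lies downstream of its deposited start, which falls inside the window searched. Bases after each RefSeq start were not searched. The matches therefore describe these windows and do not rank the promoters of the 3 genes.
Mt1: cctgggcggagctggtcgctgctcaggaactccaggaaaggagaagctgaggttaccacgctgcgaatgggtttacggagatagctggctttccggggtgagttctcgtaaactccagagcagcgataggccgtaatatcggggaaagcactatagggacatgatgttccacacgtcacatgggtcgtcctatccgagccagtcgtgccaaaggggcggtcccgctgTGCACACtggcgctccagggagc
Mt2: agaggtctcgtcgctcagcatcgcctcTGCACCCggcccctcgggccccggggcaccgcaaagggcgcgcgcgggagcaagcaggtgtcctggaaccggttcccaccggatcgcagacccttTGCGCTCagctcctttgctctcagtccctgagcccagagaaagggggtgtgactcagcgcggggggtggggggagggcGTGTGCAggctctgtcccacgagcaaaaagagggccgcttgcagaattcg
Mt3: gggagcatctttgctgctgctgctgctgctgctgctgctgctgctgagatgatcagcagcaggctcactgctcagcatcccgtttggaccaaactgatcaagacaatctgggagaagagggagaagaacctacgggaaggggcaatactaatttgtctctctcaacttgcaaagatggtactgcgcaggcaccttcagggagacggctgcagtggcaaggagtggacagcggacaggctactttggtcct

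Of 20 tested genes of regenerating or developing muscle 3 rose, against 2.91% of all genes, with a median of 0.38. Sln, sarcolipin, an inhibitor of the sarcoplasmic calcium pump, was 0.568, 0.438, 0.242 and 0.141 TPM in WT and 4.39, 3.30, 2.84 and 2.27 TPM in Col6a2-/- libraries (log2 change 1.63, SE 0.42, limma adjusted p = 0.0325). Myl4, the embryonic and atrial myosin light chain, was 1.88, 1.82, 1.47 and 1.86 TPM and 5.06, 4.08, 5.69 and 5.72 TPM (log2 change 1.15, SE 0.23, limma adjusted p = 0.00618) and was called in all 8 fits. Actc1, cardiac actin, which is also made by regenerating fibres, was 15.3, 17.7, 18.4 and 46.6 TPM and 54.5, 48.7, 70.6 and 80.6 TPM (log2 change 1.46, SE 0.36, limma adjusted p = 0.0272). WT replicate 4, the library with little slow-fibre RNA, came near the Col6a2-/- range in Actc1, and the groups of the 3 genes did not overlap. The calls of Sln and Actc1 were lost without WT replicate 1, 2, 3 or 4 or Col6a2-/- replicate 1 or 3 and without WT replicate 1, 2 or 3 or Col6a2-/- replicate 1, 3 or 4 (adjusted p up to 0.145 and 0.0963). The count for the list was 1 without WT replicate 1, 2 or 3 or Col6a2-/- replicate 1 or 3 and 5 without Col6a2-/- replicate 2. The last of these fits called 610 genes in all.

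Slow-fibre genes had the highest median of the 39 pathway lists, 1.42, with 1 call among 12 tested, Sln, against 2.91% of all genes. The count was 0 without WT replicate 1, 2, 3 or 4 or Col6a2-/- replicate 1 or 3. WT replicate 4 carried much of the median: without it the median was 0.78. Fast-fibre genes had no call among 15 and a median of -0.19, and among muscle fibre markers there was no call among 12 and a median of -0.06. With median-of-ratios factors 5 fast-fibre genes and 3 muscle fibre markers were called lower, against 2.44% of all genes with that scaling. With quantile normalization 1 fast-fibre gene was, against 1.4% of all genes, and 1 after mitochondrial and Rn7s transcripts were left out, against 0.219%. WT replicate 4 stood apart in both lists: its fast-fibre sum was 59260 TPM against 41480 to 42280 TPM in the other WT and 37100 to 43890 TPM in the Col6a2-/- libraries. Without it the medians were -0.09 and 0.0034. Acetylcholine receptor and denervation genes had 1 call among 14, against 3.03% of all genes in either direction: the transcription factor Runx1 (log2 change 0.71, SE 0.19, limma adjusted p = 0.0422), which was called in none of the 8 fits (adjusted p 0.0515 to 0.145). Of 16 atrophy ligases and FoxO targets, only Mt1 and Mt2 rose, against 2.91% of all genes. The count for that list was 0 without WT replicate 2 or 3 or Col6a2-/- replicate 1 or 3 and 1 without WT replicate 1. It was 0 with quantile normalization, and with median-of-ratios factors 1 gene was called higher and 1 lower.

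Mss51 (ENSMUSG00000021815, chr14:20482867-20496901), a muscle protein linked to mitochondrial metabolism and known to respond to myostatin and TGF-beta, had the largest fall after Col6a2 among called coding genes. It was 23.7, 26.7, 27.8 and 8.65 TPM in WT and 5.09, 5.95, 6.83 and 7.11 TPM in Col6a2-/- libraries (log2 change -1.54, SE 0.35, limma adjusted p = 0.0177). The groups did not overlap, although WT replicate 4, at 8.65 TPM, lay close to the highest Col6a2-/- library, at 7.11 TPM. The call was lost without WT replicate 2 or 3 or Col6a2-/- replicate 1 (adjusted p up to 0.0896).

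Lists for the fibre's energy and protein machinery held no call or 1 in the TPM as deposited. There was none among 33 nuclear and 13 mitochondrially encoded oxidative phosphorylation genes (medians 0.11 and 0.06), 18 of glycolysis and glycogen breakdown (0.06), 21 of lipid uptake and oxidation (0.27), 30 of the proteasome (0.05) and 21 of autophagy and mitophagy (0.06). With median-of-ratios factors 4 proteasome and 2 autophagy genes were called lower, and 1 glycolysis gene higher and 1 lower, against 3.87% of all genes higher and 2.44% lower with that scaling. Without WT replicate 4 the median was -0.0030 for the nuclear and -0.11 for the mitochondrial list. The glycolysis median was -0.02 without Col6a2-/- replicate 4, and the proteasome median -0.02 without Col6a2-/- replicate 1. The lipid list rested on WT replicate 4, the library with little slow-fibre RNA: its sum there was 656 TPM against 1443 to 1797 TPM in the other WT libraries, and without that library its median was 0.000667. Without WT replicate 1 it was 0.42. Defective autophagy and dysfunctional mitochondria are known traits of muscle without collagen VI. Sqstm1, the autophagy receptor p62, changed by -0.02 (SE 0.13), and Pink1, the mitophagy kinase, by -0.04 (SE 0.14). Of 34 ribosomal protein genes 1 was called, Rpl3 (0.70; lost without WT replicate 2 or 3 or Col6a2-/- replicate 1 or 3, adjusted p up to 0.145). Of 15 genes of the integrated stress response 1 was called, Mthfd2 (0.54; lost without WT replicate 1, 2 or 3 or Col6a2-/- replicate 1, 2 or 4, up to 0.178), and none with any of the 3 other scalings. Single calls in lists of this size stand against 3.03% of all genes. Cell cycle, p53 target, immediate early and clock genes had no call among 19, 14, 16 and 16, with medians of 0.25, 0.12, 0.48 and -0.09. Without Col6a2-/- replicate 2, 3 immediate early genes were called, and the clock median was -0.01. That fit called 610 genes in all. The clock median was -0.31 without Col6a2-/- replicate 1, where the clock sum was 238 TPM against 113 to 129 TPM in the other Col6a2-/- and 129 to 167 TPM in WT libraries. Immediate early genes summed to 126 TPM in Col6a2-/- replicate 3 and to 43.8 to 87.7 TPM in the other 7. Relative to all genes, the medians of the nuclear oxidative phosphorylation, mitochondrial, glycolysis, proteasome, autophagy, ribosomal and p53 lists were below 0. All 7 were also below 0 with median-of-ratios factors. That scaling sets the median over all genes near 0, so its values restate the comparison with all genes.

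**Figure D4:**
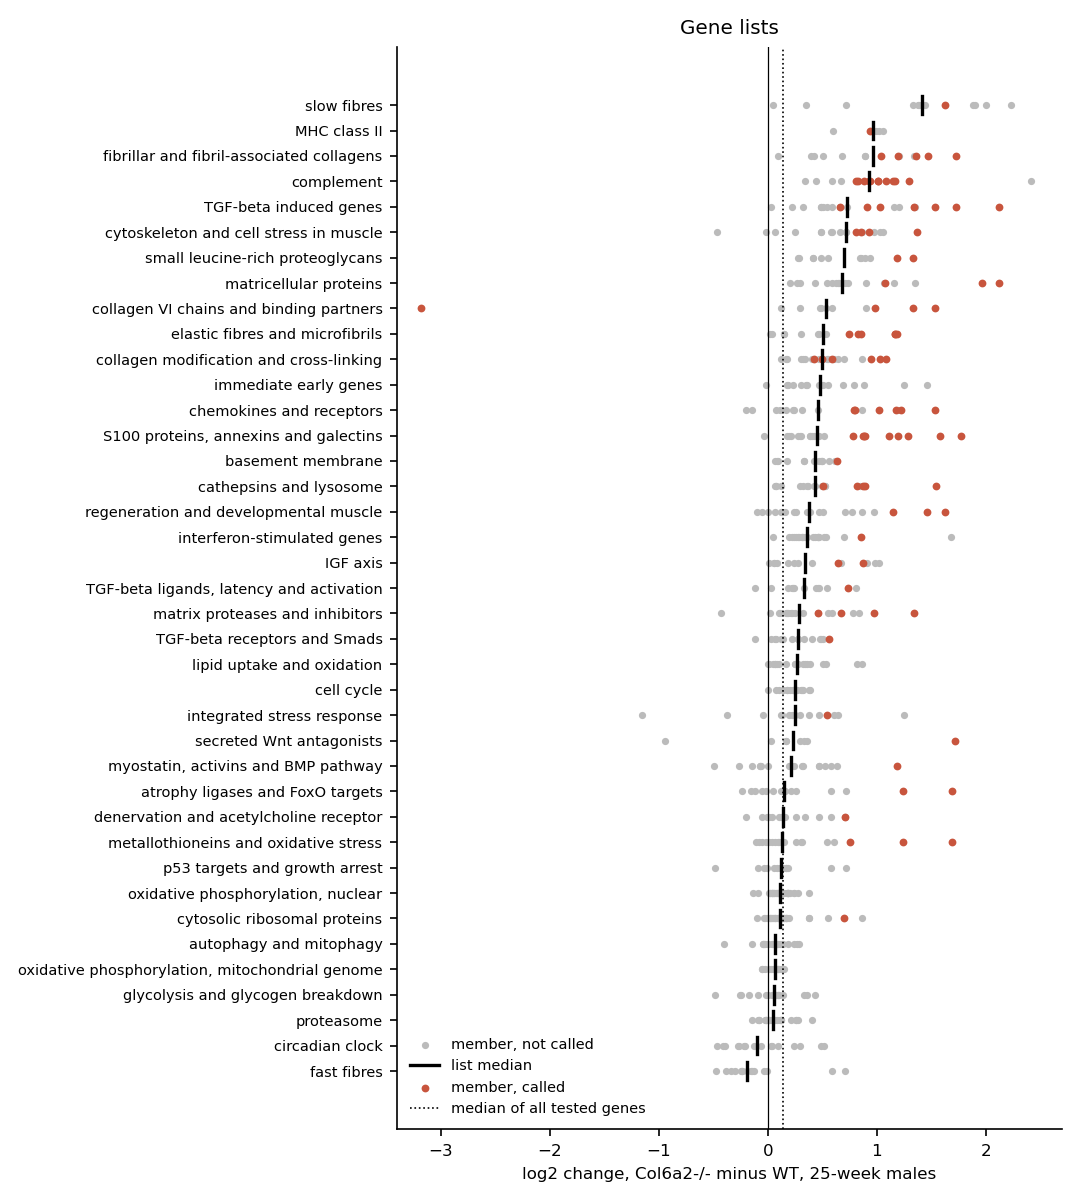
Log2 change of each tested member (dots) and the median (line) for 39 pathway lists in Col6a2-/- over WT 25-week males. Medians are high for slow fibres (1.42), MHC class II (0.97), fibrillar collagens (0.97) and complement (0.93) and lie below the median over all genes (0.14) for the oxidative phosphorylation, glycolysis, proteasome and fast-fibre lists.

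Besides Col6a2 and Mss51, 13 genes fell, and 11 of the 15 falls had no overlap between the genotypes. Snhg3 (ENSMUSG00000085241, chr4:132348014-132353686), a noncoding host gene of small nucleolar RNAs, was 109, 77.1, 89.3 and 125 TPM in WT and 5.23, 5.61, 5.03 and 4.12 TPM in Col6a2-/- libraries (log2 change -4.06, SE 0.72, limma adjusted p = 0.00275). Snora73a (ENSMUSG00000064387, chr4:132352775-132352979), a small nucleolar RNA that lies inside it, instead rose from 34.7, 54.4, 30.3 and 41.6 TPM to 373, 352.5, 334 and 363 TPM (log2 change 3.15, SE 0.56, limma adjusted p = 0.00274). Both were called in all 8 fits and stood apart by genotype. Snhg3, Snora73a, Snora73b and Rcc1 overlap on the same strand, so their values depend on how reads were divided among overlapping models. Outside the genes without overlap, the largest called falls were the small nucleolar RNA Snora5c (-1.55), Sypl (-1.04) and the mitochondrial tRNA gene mt-Tv (-0.74). The other named falls were smaller: -0.61 for Ccdc146, -0.53 for Pld5, -0.52 for Stab2, a scavenger receptor of sinusoidal endothelium, -0.49 for Smarcd3, a muscle chromatin remodelling subunit, and -0.47 for the transcription factor Tfcp2l1, with gene models 1700001O22Rik and AC162693.1 at -0.63 and -0.62. Of the 15 falls 4, in Tfcp2l1, Stab2, Pld5 and Snora5c, were in genes that would not have passed the filter without the WT males of 25 weeks. They are high in that group, which favoured a lower value in Col6a2-/- males among those tested. These 4 are counted as called, but their values are given as a description, without a test. The same filter effect held in the other direction for 2 of the 373 rises, Plaur and Crip3, which are likewise a description. Of the other small falls, 1700001O22Rik was called in all 8 fits, Smarcd3 in 2 (adjusted p up to 0.102), AC162693.1 in 1 (up to 0.134) and Ccdc146 in none (up to 0.148). Mup10, a major urinary protein gene with close paralogs that may share its reads, rose by 2.50 (SE 0.62, limma adjusted p = 0.0271). Its call was lost without WT replicate 2 or 3 or Col6a2-/- replicate 1 or 4 (up to 0.147).

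In females of the same age, which shared no library with the males, 1 gene was called between genotypes, Col6a2, and 621 had an unadjusted p below 0.05. Over the 388 genes called in males the median change was 0.71 in males and 0.30 in females; since the genes were chosen for their change in males, the male value is the larger in part by that choice. Over all genes tested, 59.2% of the female changes were above 0. In 372 of the 388 the female change had the same sign, and in 152 of these it had an unadjusted p below 0.05. Postn was 7.61 to 12.7 TPM in WT and 10.99 to 64.98 TPM in Col6a2-/- females, which overlap, against 1.84 to 4.4 and 11.2 to 23.4 TPM in males. Mss51 was 4.92 to 18.3 TPM and 2.76 to 9.14 TPM in females of the respective genotypes, also with overlap.

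A test of the difference between the sexes, the change in males minus that in females, called 2 genes (0.0156%). The difference was above 0 for 1 of them (0.0078%) and below 0 for the other (0.0078%), and 432 genes had an unadjusted p below 0.05. Snora73a differed by 4.58 (SE 0.79, limma adjusted p = 0.0180) and Snhg3 by -6.16 (SE 1.03, limma adjusted p = 0.0180). In WT females Snora73a ranged from 37.1 to 363 TPM and Snhg3 from 5.23 to 113 TPM, a spread within 1 genotype as wide as that between the genotypes of males. In Col6a2-/- females they were 34.0 to 48.5 and 99.7 to 144 TPM. Of the 16 fits that each left out a library, 7 kept the call of Snora73a and 9 that of Snhg3 (adjusted p up to 0.0809). Neither was called in a model of the 16 libraries of 25 weeks, with the replicate block or with quality weights, and Snora73a was not called without the filter, with median-of-ratios factors or with quantile normalization. Both were lost without Col6a2-/- male replicate 1, 2 or 4, WT male replicate 1 or 3, or WT female replicate 2 or 4, and Snora73a also without Col6a2-/- female replicate 2 or 3. No gene of the matrix, immune or metallothionein groups above passed the test of the difference between the sexes; a difference that did not pass is not shown to be absent.

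**Figure D5:**
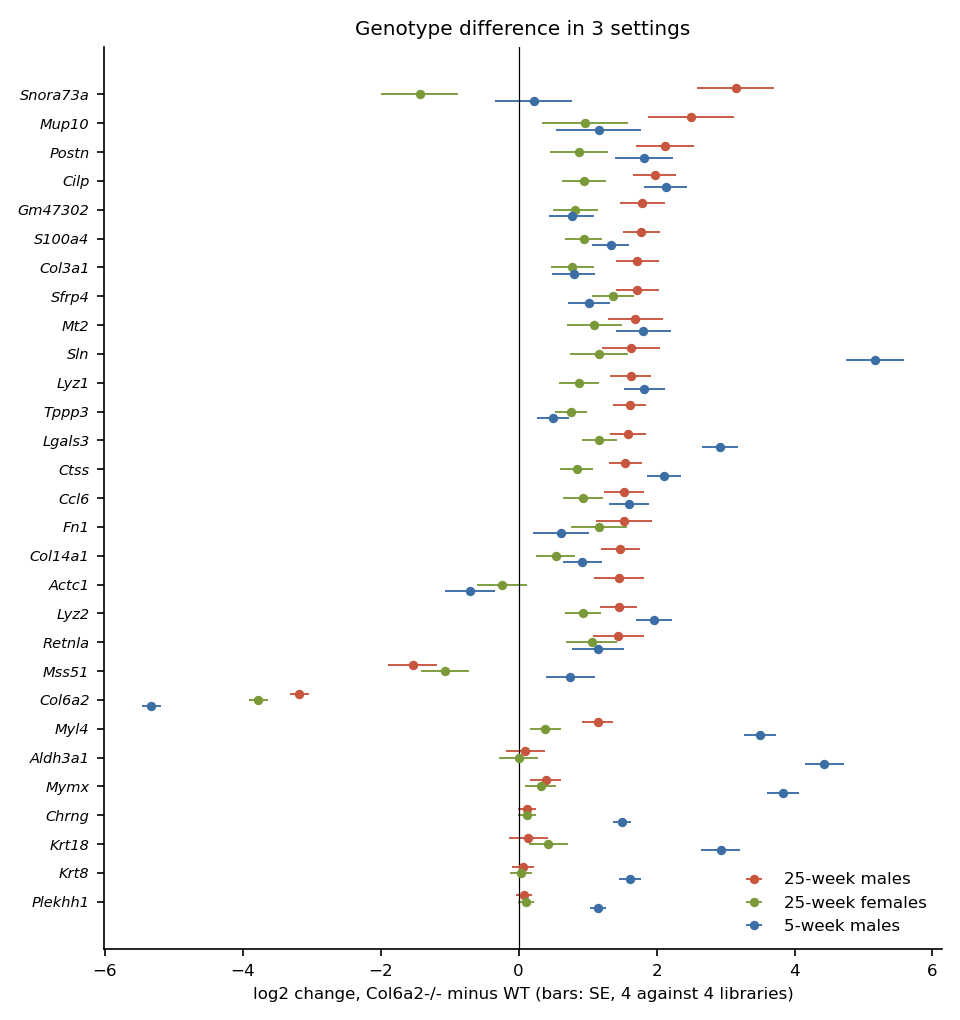
Log2 change of Col6a2-/- over WT, with SE bars, for 25-week males, 25-week females and 5-week males in 20 genes with large rises, Mss51 and 8 genes of the age test. Snora73a lies highest in 25-week males (3.15), and Aldh3a1, Mymx, Krt18 and Chrng change in 5-week males and lie near 0 in 25-week males.

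At 5 weeks, in different mice, 645 genes were called between the genotypes of males, 583 higher and 62 lower. These calls included 143 of the 388 genes from the older males, each changed the same way. Of all genes tested 5.03% were called at 5 weeks, and 74.5% of the changes in 5-week males were above 0. The median change of the 388 was 0.48 in the younger males. Postn was 26.0 to 62.3 TPM in WT and 127 to 185 TPM in Col6a2-/- males at 5 weeks, so its level was lower at 25 weeks in both genotypes. Mss51 was 1.66 to 3.17 TPM in WT and 3.11 to 6.54 TPM in Col6a2-/- males at 5 weeks. Actc1 was 1592 to 2879 TPM in WT and 1012 to 1693 TPM in Col6a2-/- males at 5 weeks, with overlap, and 15.3 to 46.6 and 48.7 to 80.6 TPM at 25 weeks.

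The genotype difference in males differed between the ages in 23 genes (0.179%), with 2 differences, taken as 25 weeks minus 5 weeks, above 0 (0.0156%) and 21 below 0 (0.164%). An unadjusted p below 0.05 was found for 479 genes. The count was 13 without WT replicate 1 or 3 of 25 weeks or WT replicate 3 of 5 weeks, 14 without WT replicate 4 of 5 weeks and 12 without Col6a2-/- replicate 3 of 5 weeks. Of the 23 genes 14, all with a difference below 0, passed the filter of 1 TPM in 4 libraries only through Col6a2-/- libraries of 5 weeks. A smaller change at 25 weeks was so built into their being tested, and they are given as a description of levels, without a test. Among them are Mymx, Chrng, Aldh3a1, Krt18, Krt8 and Plekhh1. Mymx, the fusion peptide of myoblasts, was 13.7 to 19.3 TPM in Col6a2-/- males at 5 weeks and 0.104 to 0.830 TPM at 25 weeks, and WT males of either age were at or below 0.363 TPM. Chrng, the embryonic acetylcholine receptor subunit, was 1.67 to 2.50 TPM in Col6a2-/- males at 5 weeks and 0.0148 to 0.189 TPM at 25 weeks, with WT males of 25 weeks listed at 0. Aldh3a1, an aldehyde dehydrogenase, was 15.9 to 33.4 TPM in Col6a2-/- males at 5 weeks and 0.0330 to 0.302 TPM at 25 weeks, near the WT range of 0 to 0.233 TPM at that age. For the keratin Krt18, the Col6a2-/- males were at 5.13 to 9.01 TPM at 5 weeks and 0 to 0.260 TPM at 25 weeks, and for its partner Krt8 at 1.28 to 2.58 TPM and 0 to 0.0957 TPM. Plekhh1 was 0.911 to 1.98 TPM and 0.0582 to 0.0985 TPM in the same groups. In the separate test of genotype at 25 weeks, Mymx and Chrng did not pass the threshold (limma adjusted p 0.346 and 0.624), although their groups did not overlap. WT males of 25 weeks were at or below 0.0773 TPM in Mymx.

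The other 9 genes were at 1 TPM or above in 14 or more libraries besides these. Myl4 was 31.1 to 44.3 TPM in Col6a2-/- males at 5 weeks and 4.08 to 5.72 TPM at 25 weeks (-2.35, SE 0.32, limma adjusted p = 0.000122), and it was called at both ages. Col6a2 itself differed by 2.15 (SE 0.19), with WT males at 31.3 to 51.2 TPM at 5 weeks and 6.60 to 11.2 TPM at 25 weeks. Col6a2-/- males held 0 to 0.171 TPM at 5 weeks and 0.0145 to 0.0332 TPM at 25 weeks, so the difference in Col6a2 restates the WT levels. Sln was 57.9 to 83.0 TPM in Col6a2-/- males at 5 weeks and 2.27 to 4.39 TPM at 25 weeks, against 0.471 to 1.47 and 0.141 to 0.568 TPM in WT males (difference of the changes -3.54, SE 0.60, limma adjusted p = 0.00232). Mss51, whose levels at both ages are given above, differed by -2.28 (SE 0.50, limma adjusted p = 0.0497). Ackr3, a list member named above, was the other difference above 0, at 0.84 (SE 0.18, limma adjusted p = 0.0497): its change was -0.04 at 5 weeks and 0.79 at 25 weeks. That call held in 3 of the 16 fits that each left out a library (adjusted p up to 0.185). Of the same fits 1 kept the call of Mss51, the fit without WT replicate 4 of 25 weeks (adjusted p 0.00371 to 0.165). The age differences of Myl4 and Sln were called in all 16, as was that of Col6a2, which restates its WT levels.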

How the data were processed

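RNA of quadriceps cryosections from 32 mice was sequenced in paired ends from TruSeq libraries; only RNA with an integrity number of 8 or more was used, per the labels. The submitters' processing notes name FastQC, MultiQC, Trimmomatic, HISAT2, SAMtools and StringTie, and GRCm38 (mm10), without versions; the annotation, strand setting and depth are not given in the sources used here. For each library the authors deposited a table per gene with TPM, FPKM and coverage. Rows of 1 gene ID were summed. TPM shares a fixed total, so a rise of abundant RNA lowers every other value. FPKM served as an alternative unit. It is also scaled to each library's total, so it does not remove this effect. The deposited coverage only described the libraries.

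Genes held at 1 TPM or above by 4 or more of the 32 libraries (12817) were tested on log2(TPM + 1) with limma 3.58.1 in R 4.3.3 (lmFit, eBayes with trend, 8 group means, 24 residual degrees of freedom, two-sided, Benjamini-Hochberg over all genes tested); called means an adjusted p below 0.05. Col6a2 was also tested by an exact permutation test. The procedure was tested on simulated data, and no result of that test is given or used here. Lists are described by counts and medians, without a test. The members, lists and comparisons were chosen with earlier results of these data known. Named genes are the 20 largest rises and 10 largest falls among called genes without overlap between genotypes, up to 4 called members per list with the largest change (or the 2 most abundant where none was called), up to 8 genes per interaction with the smallest adjusted p, and the core collagen VI chains and TGF-beta ligands. Other called list members, Cfd, Dkk3, the largest falls with overlap, genes that passed the filter through 1 group, and markers that set a library apart are named beside their counts and were chosen after their values were seen. Alternatives changed the pseudocount (0.1), the filter, the libraries in the model, the scaling, the weights and the unit, added a replicate block, and left out each library. Promoter sequences came from RefSeq. Some list members are counted but not reported by name here.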

Additional observations from a re-analysis of the deposited data

Results flagged for a closer look

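Among 220 groups of 4 libraries, 2 for each of the 110 named genes, 22 held a library whose gap to its nearest neighbour as a share of the group's range exceeded Dixon's critical value for 4 samples; chance flags about 1 in 20 groups. In Col6a2-/- replicate 1 this concerned S100a4 (39.0 TPM), Col6a3 (25.3 TPM), Fbn1 (17.3 TPM), Mfap4 (4.79 TPM), Mmp2 (33.4 TPM), Fstl1 (41.2 TPM), Vim (67.9 TPM) and the clock genes Tef (65.8 TPM) and Nr1d2 (39.9 TPM). In WT replicate 4 it concerned Actc1 (46.6 TPM), Thbs3 (1.69 TPM), the fast troponins Tnnt3 (9206 TPM) and Tnnc2 (6391 TPM), and mt-Co3 (9970 TPM). The other 8 were Fn1 (19.4 TPM), Timp1 (1.62 TPM) and Rrad (5.28 TPM) in Col6a2-/- replicate 3, Smarcd3 (18.8 TPM) in Col6a2-/- replicate 2, Col14a1 (2.84 TPM) in WT replicate 1, Ccl6 (2.57 TPM) in WT replicate 2, and Myl4 (1.47 TPM) and Krt18 (0.200 TPM) in WT replicate 3.

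The genotype difference of 7 genes named in the text differed by an interaction test in limma. Between the sexes at 25 weeks these were Snora73a (4.58) and Snhg3 (-6.16), and between the ages in males Col6a2 (2.15), Sln (-3.54), Mss51 (-2.28), Myl4 (-2.35) and Ackr3 (0.835), each a difference of log2 changes. That of Col6a2 restates its lower WT level at 25 weeks. The differences between the ages were -4.34 for Aldh3a1, -3.44 for Mymx, -1.37 for Chrng, -2.79 for Krt18, -1.55 for Krt8 and -1.07 for Plekhh1. These 6 genes passed the filter only through Col6a2-/- libraries of 5 weeks, which built in a difference below 0, so the values are a description with no test.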

How the results depend on the processing

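The 388 calls in 25-week males became 736 with a pseudocount of 0.1, 133 without the filter, 251 with a filter of 5 TPM, 645 in a model of these 8 libraries alone, 1075 in one of the 16 libraries of 25 weeks, 809 with median-of-ratios factors, 2437 with quality weights, and 55 to 610 with 1 library left out. The causes were not tested. The 2 calls between the sexes became 1 without the filter, with median-of-ratios factors or with quantile normalization, 0 in the 16 libraries of 25 weeks (782 at an unadjusted p below 0.05 in limma), 0 with the replicate block (508) and 0 with quality weights (1797), and 0 to 2 with 1 library left out. The 23 calls between the ages became 14 with a pseudocount of 0.1, 59 without the filter, 13 with the 5 TPM filter, 15 with the replicate block, 45 with median-of-ratios factors, 62 with quantile normalization, 53 with quality weights, and 12 to 34 with 1 library left out. Col6a2 was lower in Col6a2-/- males in all 13 alternatives run for it. Over the 110 genes of the naming rule, called or not, and the alternatives, the change in 25-week males kept its sign and its side of the threshold 1675 times, lost its call 338 times and gained one 13 times. It changed sign 38 times, each time in a gene that was not called. Counts of calls per gene list moved by over 1.5 times in 309 pairs of list and alternative and stayed within that in 660. The main model did not pair libraries by replicate number. Deviations of WT and Col6a2-/- males with the same number correlated at -0.02, 0.09, 0.04 and 0.06. Those with different numbers correlated at -0.09 to 0.05, and not every library correlated best with its own number. With 4 libraries per group these values cannot settle whether the numbers pair the libraries. With the replicate number as a block 430 genes were called in these males. Read counts per gene are not given, so no counting error is stated, and 4 mice per group limit the precision.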
